A study of Mus musculus with 3 samples.

Results

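Undifferentiated stroma of the mouse uterus at pregnancy day 7.5 was taken from 1 single-cell library as 395 of the 1825 barcodes that passed a quality filter, a share of 21.6% (exact binomial 95% interval 19.8 to 23.6). The filter asked for 500 or more genes detected and no more than 20% mitochondrial UMIs; a UMI (unique molecular identifier) counts 1 captured transcript. Members had at least 2 UMIs of Cdh11, a mesenchymal cadherin, fewer than 5 UMIs of Tdo2 and fewer than 30 UMIs of Dcn per 10000, fewer than 3 UMIs over 4 mesothelial genes (Msln, Upk3b, Lrrn4 and Upk1b), at most 1 UMI of the leukocyte gene Ptprc and fewer than 3 UMIs over 4 epithelial genes (Epcam, Cdh1, Cldn3 and Cldn4). The rule thus used measured values of these cells, so the levels that follow describe the members and none of them is tested. The female mice had been housed with littermates until 8 weeks old and were mated with stud males, and the uterus was dissociated with trypsin; the labels give no genotype for this library and do not say how many animals it holds. The samples Prl8a2icre/+ Sun1-GFPLsL/+ and Sun1-GFPLsL/+, also taken at day 7.5, are not analysed here. With 1 library there is no replicate check, and every interval covers counting error only.

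The uterine stroma is the fibroblast layer between the lining epithelium and the muscle. After implantation in the mouse, stromal cells around the embryo respond to progesterone and BMP2 and turn into decidual cells, which make the tryptophan-degrading enzyme Tdo2, while stroma that has not turned keeps a fibroblast state. Progesterone acts through its receptor Pgr, and Hedgehog ligand from the epithelium acts on the stroma through the receptor Ptch1.

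The library held 2775 barcodes with 16848794 UMIs. The members carried 1638140 of these UMIs, at a lowest, median and highest of 796, 3768 and 27197 UMIs per cell and a median of 1810 detected genes. The median mitochondrial share was 4.25% in members, against 4.18% in the 1430 other barcodes that passed the filter, whose median was 4957 UMIs. Where shares of cells with a UMI are given, each cell was thinned to 2000 UMIs and shallower cells were left out, which kept 319 members. A doublet caller marked 13 of the 1825 barcodes (0.712%), 1 of them a member, and none was removed.

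Marker lists are set beside the label as a description. The given markers were chosen with earlier results of these data known, so they are no independent check. Genes that the rule used (Cdh11, Tdo2, Epcam and 4 mesothelial genes among the lists) were left out of the sums for this, since the rule fixes them. The 6 other markers given for the stroma were found in the members, at 4429 CPM for the list (counts summed over the cells of a group and scaled to CPM, counts per 1e6 UMIs), against 527 CPM in all other barcodes. The list was at 3737 CPM in mesothelial barcodes and 2814 CPM in the Tdo2-high stromal barcodes defined below. With Cdh11 counted, the 7 markers summed to 6415 CPM in members and 14233 CPM in the 6 barcodes that failed the Dcn limit alone. Leukocyte and epithelial markers were low in members: 12 leukocyte markers summed to 65.3 CPM, against 6653 CPM in Ptprc-positive barcodes, and 8 epithelial markers to 87.9 CPM, against 4776 CPM in epithelial barcodes. All 6 erythroid markers were at 0 UMIs, where up to 3 counts in 1638140 UMIs would go unseen. Leukocyte, epithelial and red cell transcripts thus formed a small part of the members' RNA. The rule limits Ptprc and 4 epithelial genes, so low leukocyte and epithelial levels follow in part from the selection. Erythroid markers held just 4 UMIs in all other barcodes, so a count of 0 does not set the members apart. Of 10 endothelial markers Cldn5 was at 0, and Cdh5 gave 97.1 of the 110 CPM of the list. The 3 mesothelial markers outside the rule summed to 374 CPM in members and 180.4 CPM in all other barcodes, and Wt1, a transcription factor that uterine stroma also makes, gave 368 CPM of the level in members. The 12 smooth muscle and pericyte markers summed to 716 CPM in members and 490.2 CPM in all other barcodes, with Actg2 and Cnn1 at 0 and Rgs5 at 309 CPM in members. These last 2 lists were thus higher in members than in all other barcodes pooled. In mesothelial barcodes they summed to 2081 and 177 CPM, and in the Tdo2-high stromal barcodes defined below to 545 and 701 CPM. Trophoblast and embryo markers summed to 120 CPM with 8 of 13 at 0, and glial and neuronal markers to 14.7 CPM with 4 of 6 at 0. The 6 decidual markers other than Tdo2 summed to 425 CPM in members, 277 CPM in all other barcodes and 1801 CPM in the 107 Tdo2-high stromal barcodes, defined by at least 5 Tdo2 UMIs per 10000 and by the same leukocyte, epithelial and mesothelial limits.

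A few members carried pericyte markers. 506 Rgs5 UMIs were found in 27 of the 395 members, and 473 of them in the 4 members that had at least 5 each. These 4 cells held 0 UMIs of Hsd11b2, Nog and Dpt in 33032 UMIs, and 1332 CPM of Abcc9, a potassium channel subunit typical of pericytes, against 13.6 CPM in the 368 members without Rgs5. The values of these 4 cells go against the label.

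At the edges of the rule, barcodes just inside and just outside carried different levels of Hsd11b2. The 46 members with exactly 2 Cdh11 UMIs had 651 CPM of Hsd11b2, and the 45 barcodes left out with 1 Cdh11 UMI had 243 CPM. Rgs5 was at 2279 CPM in the former and 4504 CPM in the latter, against 309 CPM over all members. Members with 2.5 to 5 Tdo2 UMIs per 10000 (n = 16) had 1048 CPM of Hsd11b2, and Cdh11-positive barcodes just outside, with 5 to 10 (n = 22), had 185 CPM. Tdo2 was at 0 UMIs in 363 of the 395 members, and Dcn in 239. Both genes were capped by the rule. Another 9 members had 15 to 30 Dcn UMIs per 10000, and 6 barcodes failed the Dcn limit alone.

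**Figure D1:**
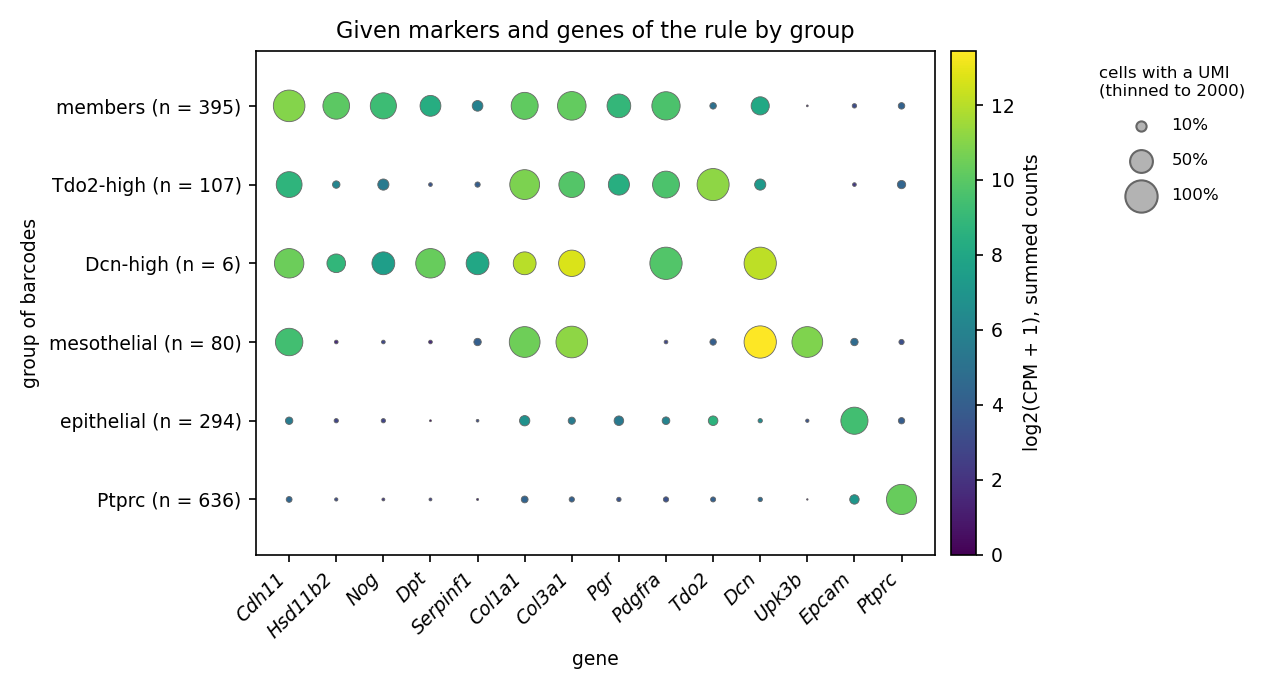
Given stromal markers and genes of the rule (columns) in members, Tdo2-high, Dcn-high, mesothelial, epithelial and Ptprc-positive barcodes (rows). Colour is log2(CPM + 1) of summed counts and dot area the percent of cells with a UMI after thinning to 2000 UMIs; Hsd11b2 was found in 68.3% of members and 5.33% of Tdo2-high barcodes.

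Of the given markers besides Cdh11, which the rule used, Hsd11b2, Nog, Dpt and Serpinf1 were higher in members than in Tdo2-high barcodes at 2-fold or more, and Col1a1 and Col3a1 lay within 2-fold. Hsd11b2 (GRCm38, chromosome 8, 105518755 to 105523988, plus strand), which inactivates glucocorticoids, ranged from 0 over a median of 7.25 to 80.3 UMIs per 10000 in members, against 0, 0 and 40.8 in Tdo2-high barcodes. Summed, it was at 1077 CPM in members (1765 UMIs), 15.4 CPM in all other barcodes and 69.2 CPM in Tdo2-high barcodes. Nog, a secreted antagonist of BMP ligands (chromosome 11, 89300638 to 89302332, minus strand), had a lowest, median and highest value of 0, 5.31 and 32.0 UMIs per 10000 in members, against 0, 0 and 18.9 in Tdo2-high barcodes. The medians of both genes lay above 0 in members and at 0 in Tdo2-high barcodes, and the ranges overlapped. The highest values on the Tdo2-high side came from the 20 barcodes with 1 Tdo2 UMI, which had 636 CPM of Hsd11b2 and 318 CPM of Nog. The 87 with 2 or more Tdo2 UMIs had 46.5 and 32.4 CPM, and highest values of 8.90 and 7.81 UMIs per 10000.

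Dpt, dermatopontin of the fibroblast matrix (chromosome 1, 164796644 to 164824266, plus strand), was at 335 CPM in members, 10.8 CPM in Tdo2-high barcodes and 9.95 CPM in all other barcodes. It had no UMI in 198 of the 395 members. Serpinf1, which encodes the anti-angiogenic factor PEDF, was at 57.4 CPM in members and 6.43 CPM in all other barcodes, and 325 members had no UMI of it. Col1a1 and Col3a1, fibrillar collagen chains, were at 1156 and 1203 CPM in members, against 1749 and 926 CPM in Tdo2-high barcodes. At this depth a count of 0 in a cell does not show that Dpt or Serpinf1 was absent from it. In shares of thinned cells, Hsd11b2 was found in 68.3% of members and 1.02% of Ptprc-positive barcodes, which should lack it, Nog in 65.5% and 0.818%, Dpt in 41.7% and 0.818%, and Serpinf1 in 11.0% and 0.409%. The median depth before thinning was 3768 UMIs in members and 5097 UMIs in Ptprc-positive barcodes.

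Against all other barcodes, 12190 genes with at least 50 UMIs over both sides were compared, and 2373 of them (19.5%) were at least 2-fold higher in members and 2902 (23.8%) at least 2-fold lower. The 12 highest ratios belonged to Scube2, Hsd11b2, Tmem132c, Nog, a, Gdf10, Il13ra2, Dio2, Csrnp3, Kcnn3, Glrb and Tfap2c. Scube2, which helps release Hedgehog ligands from cells, was at 153 CPM in members (250 UMIs) and 1.99 CPM in all other barcodes, a ratio of 76.7 (51.1 to 120). Gdf10, a member of the BMP3 group of ligands, was at 398 CPM in members and 7.65 CPM in all other barcodes. Il13ra2, a decoy receptor for interleukin 13, was at 90.3 CPM in members and 1.76 CPM elsewhere, and the agouti gene a, a melanocortin receptor antagonist, at 72.6 and 1.30 CPM. Dio2, which activates thyroid hormone, was at 348 CPM in members and 6.89 CPM in all other barcodes, a ratio of 50.5 (40.4 to 63.8). The prolactin receptor gene Prlr, named after its values were seen, was at 1193 CPM in members and 41.7 CPM in all other barcodes. The 8 lowest ratios were those of Hpgds, Napsa, Nkg7, Klra4, Tyrobp, Ctss, Ighm and Slc39a4, most of them leukocyte genes; Tyrobp, an adaptor of myeloid and NK cell receptors, was at 3.05 CPM in members and 346 CPM in all other barcodes.

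Promoters are shown for Scube2, which had the highest ratio, and for the deiodinase pair Dio2 and Dio3, which differed from Tdo2-high stroma in opposite directions. Each sequence is the sense strand from 250 bases before to 50 after the start of the gene in RefSeq (GRCm38.p6), 5′ to 3′, with GGGCGG or CCGCCC (the GC box core, both strands, overlapping matches merged) in capitals. Scube2 (chr7:109865630-109865929, minus strand) held 5 boxes and 36 CpG, Dio2 (chr12:90738989-90739288, minus strand) 0 boxes and 3 CpG, and Dio3 (chr12:110278980-110279279, plus strand) 4 boxes and 25 CpG. TATAAA stood at 1 position in Dio2, at 1 in Dio3 and at 0 in Scube2, searched on both strands. Of 32851 RefSeq promoters of this length 35.7% held a box and 13.6% TATAAA, with a median of 7 CpG. These counts describe letters and no binding site.
Scube2: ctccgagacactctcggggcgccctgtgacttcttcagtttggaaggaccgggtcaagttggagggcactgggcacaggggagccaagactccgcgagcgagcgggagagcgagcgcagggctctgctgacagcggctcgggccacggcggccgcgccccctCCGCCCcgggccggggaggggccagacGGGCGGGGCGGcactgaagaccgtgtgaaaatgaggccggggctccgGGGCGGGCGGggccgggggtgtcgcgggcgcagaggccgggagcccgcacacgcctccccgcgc
Dio2: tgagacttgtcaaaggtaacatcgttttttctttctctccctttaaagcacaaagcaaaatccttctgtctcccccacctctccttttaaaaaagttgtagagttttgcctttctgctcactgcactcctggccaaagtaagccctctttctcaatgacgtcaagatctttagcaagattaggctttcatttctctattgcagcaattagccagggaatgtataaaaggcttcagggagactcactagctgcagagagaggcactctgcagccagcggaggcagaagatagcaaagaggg
Dio3: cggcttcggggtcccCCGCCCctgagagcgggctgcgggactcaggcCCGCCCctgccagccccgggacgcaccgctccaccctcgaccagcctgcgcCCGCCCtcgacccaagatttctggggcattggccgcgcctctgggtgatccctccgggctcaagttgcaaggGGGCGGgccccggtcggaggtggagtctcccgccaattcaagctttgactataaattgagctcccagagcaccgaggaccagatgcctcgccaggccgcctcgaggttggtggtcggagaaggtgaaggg

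The hormone receptors of the stroma were well represented. Of 19 steroid receptors and cofactors compared with all other barcodes, 9 were at least 2-fold higher in members and 0 lower (median log2 ratio 0.95 beside 0.03 over all genes compared). Pgr ranged from 0 over a median of 4.12 to 40.0 UMIs per 10000 in members, against 0, 2.20 and 16.7 in Tdo2-high barcodes. Members tended to higher Pgr values, and the ranges overlapped. It summed to 477 CPM in members, 46.0 CPM in all other barcodes and 339 CPM in Tdo2-high barcodes. Greb1, a hormone-induced cofactor of the estrogen receptor, and Zbtb16, a transcription factor induced by steroids, had the highest ratios of the list, at 151 and 245 CPM in members and 7.50 and 17.6 CPM in all other barcodes. Esr1, the estrogen receptor, was at 522 CPM in members, 226 CPM in all other barcodes and 346 CPM in Tdo2-high barcodes. The glucocorticoid receptor gene Nr3c1 was at 48.8 CPM in members and 62.0 CPM in all other barcodes. Of 18 steroid-converting and cholesterol genes, 3 were higher (Hsd11b2, Cyp1b1 and Abca1) and 6 lower in members, a number of lower genes that was 10 without cluster 4. Hsd11b1, which regenerates glucocorticoids, was at 7.94 CPM in members and 133 CPM in all other barcodes, whereas Cyp1b1, an estrogen hydroxylase, was at 30.5 CPM in members and 0.995 CPM in all other barcodes.

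Of 11 Hedgehog pathway genes compared with all other barcodes, 8 were at least 2-fold higher in members and 1 lower (median log2 ratio 1.53). Ptch1, the Hedgehog receptor and a target of the pathway, was at 95.2 CPM in members, 32.9 CPM in all other barcodes and 13.6 CPM in Tdo2-high barcodes, the last a ratio of 7.02 (3.72 to 14.9). The pathway's transcription factor gene Gli2 was at 27.5 CPM in members and 1.45 CPM in all other barcodes. Gli1, the other target followed, had 16 UMIs in members, 13 in all other barcodes and 1 in Tdo2-high barcodes, under the 50 UMIs needed for a comparison. Nr2f2, a stromal nuclear receptor that acts after Hedgehog signalling, was at 556 CPM in members and 109 CPM in all other barcodes. Disp1, which exports Hedgehog ligands, was the lower gene, at 3.66 CPM in members and 7.34 CPM in all other barcodes, with an interval of the ratio (0.179 to 1.13) that included 1.

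Among 36 BMP and TGF-beta genes, 16 were at least 2-fold higher in members than in all other barcodes and 7 lower (median log2 ratio 0.85). Besides Nog and Gdf10, the higher genes included the activin subunit gene Inhba, the antagonists Chrd and Fst, and the receptor genes Bmpr1a and Bmpr2. Id2 and Id4, transcriptional targets of BMP signals, had the lowest ratios, with Id2 at 13.4 CPM in members and 214 CPM in all other barcodes. Fst, which binds activin, had a median of 4.40 UMIs per 10000 in members and 8.92 in Tdo2-high barcodes, and the values overlapped. Of 31 WNT genes, 12 were higher and 9 lower (median log2 ratio 0.76), and 10 and 10 without cluster 4 (median 0.08). The secreted inhibitors Sfrp2 and Dkk3 led, at 333 and 167 CPM in members and 14.3 and 18.4 CPM in all other barcodes, and Rnf43 and Fzd6 had the lowest ratios with 1 and 4 UMIs in members.

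Of 27 posterior Hox and mesenchymal transcription factor genes, 22 were at least 2-fold higher in members than in all other barcodes and 4 lower (median log2 ratio 2.75). Twist2 and Osr2, mesenchymal transcription factors, were at 56.2 and 211 CPM in members and 1.68 and 6.43 CPM in all other barcodes. Hoxa10 and Hoxa11, which the stroma needs for implantation, were at 1354 and 324 CPM in members and 107 and 27.0 CPM in all other barcodes. The 4 lower genes were Gata6, Msx1, Nfib and Msx2. Hand2, a progesterone-induced stromal factor, was at 261 CPM in members and 55.8 CPM in all other barcodes. Of 28 PDGF, FGF, IGF and HGF genes, 18 were higher and 8 lower (median log2 ratio 1.71). Pdgfra, a fibroblast receptor, was at 811 CPM in members and 82.7 CPM in all other barcodes, Fgf10 at 51.9 and 1.84 CPM, and Igf1 at 1265 and 198 CPM.

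The matrix genes ran mostly higher in members than in all other barcodes pooled. Summed, the collagen list was at 7133 CPM in members and 6255, 7587 and 19942 CPM in Tdo2-high, mesothelial and Dcn-high barcodes. In the same order, the proteoglycan and glycoprotein list was at 5959, 6357, 6737 and 13794 CPM. The protease, inhibitor and crosslinker list was at 4922, 3536, 4360 and 7517 CPM. Of 20 collagen chains compared, 17 were at least 2-fold higher than in all other barcodes and 0 lower (median log2 ratio 2.38); Col1a1 and Col3a1, given as markers, are among them. Col4a6 and Col6a2, chains of basement membrane and microfibrillar collagen, were at 76.9 and 509 CPM in members and 4.82 and 35.6 CPM in all other barcodes. Of 37 matrix proteoglycans and glycoproteins, 20 were higher and 5 lower (median log2 ratio 1.42, and 0.82 without cluster 4), with Spon1, an adhesive matrix protein, at 477 CPM in members and 23.3 CPM in all other barcodes, and Ogn and Lama5 lowest. Of 31 matrix proteases, inhibitors and crosslinkers, 24 were higher and 2 lower (median 2.03). Mmp2, gelatinase A, ranged from 0 over 3.15 to 22.1 UMIs per 10000 in members, against 0, 0 and 7.82 in Tdo2-high barcodes, overlapping ranges with a median of 0 in the Tdo2-high ones. The serine protease gene Htra3 was at 192 CPM in members and 10.0 CPM in all other barcodes. Of 12 imprinted genes 9 were higher and 1, Mest, lower (median 1.56), led by Nnat and Sgce. Most Nnat UMIs of members came from cluster 4, with 63 there and 17 in other members.

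Lists with counts in both directions were the following. Against all other barcodes, 10 of 27 decidual stroma genes were higher in members by 2-fold or more and 10 were lower (median log2 ratio 0.63). The median was -0.69, with 8 higher and 12 lower, without cluster 4. Tcf23, a stromal transcription factor needed for decidualization, was at 200.2 CPM in members and 8.57 CPM in all other barcodes, and Cryab, a small heat shock protein gene, at 7.33 and 66.6 CPM. Of 15 retinoid genes 4 were higher and 3 lower (median 0.45), against 3 and 4 of 14 without cluster 4 (median 0.07). The counts were, of 30 angiogenic genes 8 and 8 (median 0.37), of 17 adventitial fibroblast genes 8 and 6 (median 0.65), of 28 adhesion genes 8 and 10 (median -0.45), and of 19 cyclins and CDK inhibitors 2 and 6 (median -0.26). Stra6, a receptor for retinol binding protein, was at 40.3 CPM in members and 2.98 CPM in all other barcodes, and Itga8, an integrin of mesenchyme, at 94.6 and 8.19 CPM. Of the adventitial genes, Ly6a and Dpp4 had the lowest ratios, at 28.1 and 5.49 CPM in members and 393 and 67.9 CPM in all other barcodes. The CDK inhibitor genes Cdkn1c and Cdkn1b were the higher pair of the cyclin list, and Ccnd1 was at 17.1 CPM in members and 199 CPM in all other barcodes.

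Division, glycolysis and antigen presentation genes ran lower in members. Among 26 S phase genes, 0 were higher by 2-fold or more and 21 lower (median log2 ratio -1.996), and of 30 G2 and mitosis genes 0 and 26 (median -1.57), or 0 and 30 without cluster 4 (median -2.78). After thinning, 10 of 319 members (3.13%, interval 1.51 to 5.69) had at least 3 UMIs of G2 and mitosis genes, against 13.3% of 75 Tdo2-high, 9.19% of 283 epithelial and 24.5% of 489 Ptprc-positive barcodes. Of 24 glycolysis and hypoxia genes 1 was higher, the glucose transporter gene Slc2a3, whose log2 ratio was -0.12 as a mean over cells, and 18 lower (median -1.18), with Gapdh at 91.0 CPM in members and 390 CPM in all other barcodes. Of 15 MHC class I presentation genes 0 were higher and 14 lower (median -2.12), with Psmb9 and Psmb8, immunoproteasome subunit genes, lowest. Of 27 chemokine and cytokine genes 8 were higher, among them Il1r1 and Il11ra1, and 16 lower (median -2.05). Of 17 complement and innate defence genes 2 were higher, C1s1 and C1ra, and 11 lower (median -2.25). Of 26 immediate early and heat shock genes 0 were higher and 17 lower (median -1.87). The other barcodes are mostly leukocytes and epithelial cells, 636 with at least 2 Ptprc UMIs and 294 epithelial, so these ratios depend on that mixture.

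**Figure D2:**
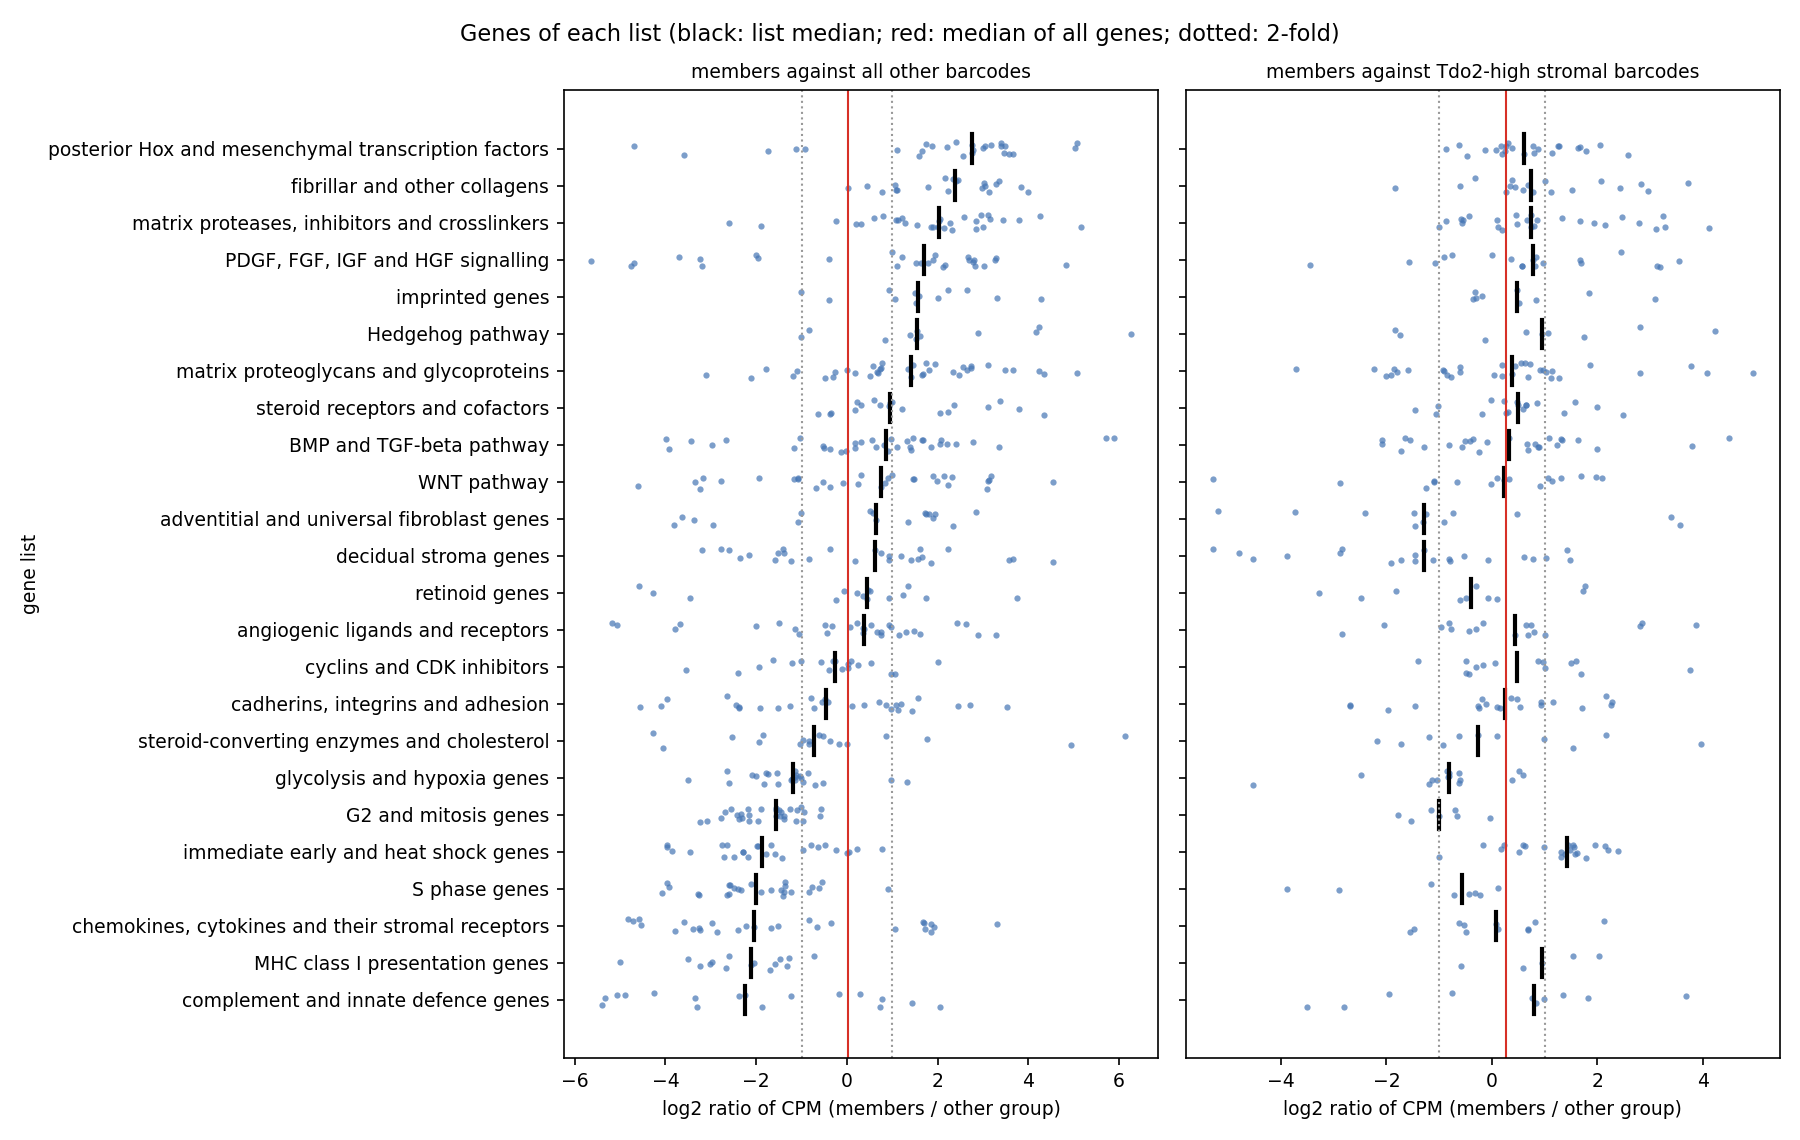
Log2 ratio of CPM for each gene of the 24 lists (points), in members against all other barcodes (left panel) and against Tdo2-high stromal barcodes (right panel), with the list median in black, the median of all genes compared in red and 2-fold dotted. The immediate early and heat shock list has a median of -1.87 in the left panel and 1.42 in the right panel.

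Against the 107 Tdo2-high stromal barcodes, taken as the nearest class by origin, Pgr, Esr1, Pdgfra, Col1a1 and Col3a1 lay within 2-fold. Itih5, Dio2, Dpt, Hsd11b2 and Nog were higher in members, and A2m, Dio3, Bmp2 and Wnt4 were lower. Unlike the members, the Tdo2-high barcodes had no limit on Cdh11 or Dcn. Of the 107, 33 had 0 Cdh11 UMIs and 60 had 2 or more. Of 6785 genes compared, 1093 (16.1%) were at least 2-fold higher in members and 374 (5.51%) lower (median log2 ratio 0.26). The Tdo2-high barcodes were deeper, with a median of 5308 UMIs, and had a median mitochondrial share of 10.6%, against 4.25% in members; the part of depth and mitochondrial share in these ratios was not tested. 20 of the 107 had just 1 Tdo2 UMI and a median of 1396 UMIs, and with at least 2 Tdo2 UMIs required the numbers of higher and lower genes stayed within 1.5 times. A stromal level per cell and a share of cells in a state cannot be told apart in summed counts.

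The 12 highest ratios were those of Itih5, Creb5, Dlc1, Piezo2, Dio2, Dpt, Cp, Csrnp3, Abcc9, Scn2b, Galnt15 and Trib2. Itih5, which stabilises hyaluronan in the matrix, ranged from 0 over 3.08 to 43.1 UMIs per 10000 in members, against 0, 0 and 6.53 in Tdo2-high barcodes, of which 103 of 107 had none. It summed to 540 CPM in members and 6.78 CPM in Tdo2-high barcodes, a ratio of 79.6 (34.0 to 246). Creb5, a transcription factor of the CREB family, was at 255 CPM in members and 4.07 CPM in Tdo2-high barcodes, and Piezo2, a mechanically gated channel, at 172 and 4.07 CPM. Cp, the copper-binding ferroxidase ceruloplasmin, was at 289 CPM in members and 9.49 CPM in Tdo2-high barcodes. 44 of the 64 Abcc9 UMIs in members came from the 4 Rgs5-rich cells. Hsd11b2 and Nog had ratios of 15.6 (11.8 to 21.0) and 13.8 (9.74 to 20.4), and Prlr, at 1193 CPM in members and 255 CPM in Tdo2-high barcodes, a ratio of 4.68 (4.03 to 5.47).

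The 8 lowest ratios belonged to Tdo2, which the rule used, Dmkn, Sfrp5, Ly6a, A2m, Kcna1, Susd2 and S100g. A2m, a broad protease inhibitor, was at 98.9 CPM in members and 3467 CPM in Tdo2-high barcodes, and Ly6a (Sca-1) at 28.1 CPM in members and 1031 CPM in Tdo2-high barcodes. Dmkn and Sfrp5 had 0 UMIs in members, against 84 and 53 UMIs in Tdo2-high barcodes, which at a limit of 3 counts over the members puts their log2 ratios at or below -5.96 and -5.29. S100g, a calcium-binding protein, was at 9.16 CPM in members and 296 CPM in Tdo2-high barcodes.

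The deiodinases stood in opposite directions. Dio2 ranged from 0 over a median of 0 to 44.5 UMIs per 10000 in members, with 210 of 395 members at 0, and from 0 over 0 to 6.97 in Tdo2-high barcodes, with 102 of 107 at 0. The highest Dio2 value among the 87 Tdo2-high barcodes with 2 or more Tdo2 UMIs was 1.81, and the high values were in members. Dio3, which inactivates thyroid hormone, was at 18.9 CPM in members and 523 CPM in Tdo2-high barcodes, and 26 of its 31 UMIs in members came from cluster 4. After thinning, Dio2 was found in 38.9% of members, 0% of 75 Tdo2-high barcodes and 0.818% of Ptprc-positive barcodes, and Dio3 in 0.940%, 37.3% and 1.02% of them. Over all members, the share with Dio3 was thus no higher than in leukocytes.

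Of 21 decidual genes compared with Tdo2-high barcodes, 3 were at least 2-fold higher in members (Tcf23, Foxo1 and Cited2) and 12 lower (median log2 ratio -1.29). Bmp2, the ligand that drives decidualization, was at 85.5 CPM in members and 283 CPM in Tdo2-high barcodes, and Wnt4, which acts after it, at 22.6 and 165 CPM. The gap junction gene Gja1 was at 280.2 CPM in members and 769 CPM in Tdo2-high barcodes, and the glucose transporter gene Slc2a1 at 14.0 and 324 CPM. Hand2 was at 261 CPM in members and 450.2 CPM in Tdo2-high barcodes, within 2-fold. Of 15 glycolysis and hypoxia genes 0 were higher and 5 lower, of 8 S phase genes 0 and 3, and of 7 G2 and mitosis genes 0 and 4. Id1 and Id3, BMP targets, were at 34.8 and 73.3 CPM in members and 148 and 312 CPM in Tdo2-high barcodes, among 27 BMP and TGF-beta genes of which 8 were higher and 6 lower.

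Several receptor and transcription factor genes of stroma lay within 2-fold, and others were past it. Over all genes compared with Tdo2-high barcodes, 16.1% were higher in members by 2-fold or more and 5.51% lower. Pdgfra was at 811 CPM in both groups, with a ratio of 0.9998 (0.907 to 1.10), and Esr1, Pgr, Nr2f2, Hoxa10, Hoxa11, Igf1 and Vegfa lay within 2-fold. Of 18 collagen chains 8 were higher and 1 lower, of 33 matrix glycoproteins 9 and 7, and of 26 matrix proteases and inhibitors 10 and 1 (10 and 3 of 25 without cluster 4). The collagen count was 5 of 16 without cluster 4 and 4 of 16 without cluster 3. Of 23 Hox and mesenchymal factors 8 were higher and 0 lower, of 18 steroid receptors and cofactors 4 and 3, of 9 Hedgehog genes 4 and 2, of 17 WNT genes 6 and 5, and of 12 adventitial genes 2 and 7. Fkbp5, a progesterone- and glucocorticoid-induced chaperone, was at 63.5 CPM in members and 175 CPM in Tdo2-high barcodes, and Gas1, a Hedgehog co-receptor, at 299 and 1071 CPM. Gas6, ligand of the TAM receptors, was at 159 CPM in members and 13.6 CPM in Tdo2-high barcodes, among 19 growth factor genes of which 6 were higher and 3 lower. Of 10 retinoid genes 2 were higher and 3 lower, with Cyp26b1, which degrades retinoic acid, at 9.77 CPM in members and 94.9 CPM in Tdo2-high barcodes. Counts were 3 higher and 3 lower of 11 steroid-converting and cholesterol genes, 4 and 2 of 17 angiogenic genes (4 and 4 of 16 without cluster 4, 2 and 2 of 14 without cluster 3), 5 and 1 of 14 cyclins and inhibitors, 2 and 0 of 5 MHC class I genes, 1 and 2 of 11 chemokine and cytokine genes, 3 and 3 of 10 complement genes, 5 and 4 of 20 adhesion genes and 2 and 0 of 9 imprinted genes. Small counts moved with the clusters: without cluster 3 the counts were 5 and 3 of 15 WNT genes, 3 and 1 of 13 cyclins and inhibitors, 0 and 2 of 6 G2 and mitosis genes and 1 and 0 of 4 MHC class I genes, and without cluster 4 they were 0 and 2 of 3 G2 and mitosis genes and 1 and 0 of 8 imprinted genes.

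Of 22 immediate early and heat shock genes 14 were higher in members than in Tdo2-high barcodes and 1 lower (median log2 ratio 1.42). Hspa1a, an inducible heat shock chaperone, was at 701 CPM in members and 159 CPM in Tdo2-high barcodes, and Egr1, an early response factor, at 358 and 77.3 CPM. Without cluster 3, 4 of 21 were higher and 0 lower, with a median of 0.56. The count thus rested on the 119 cells of cluster 3.

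**Figure D3:**
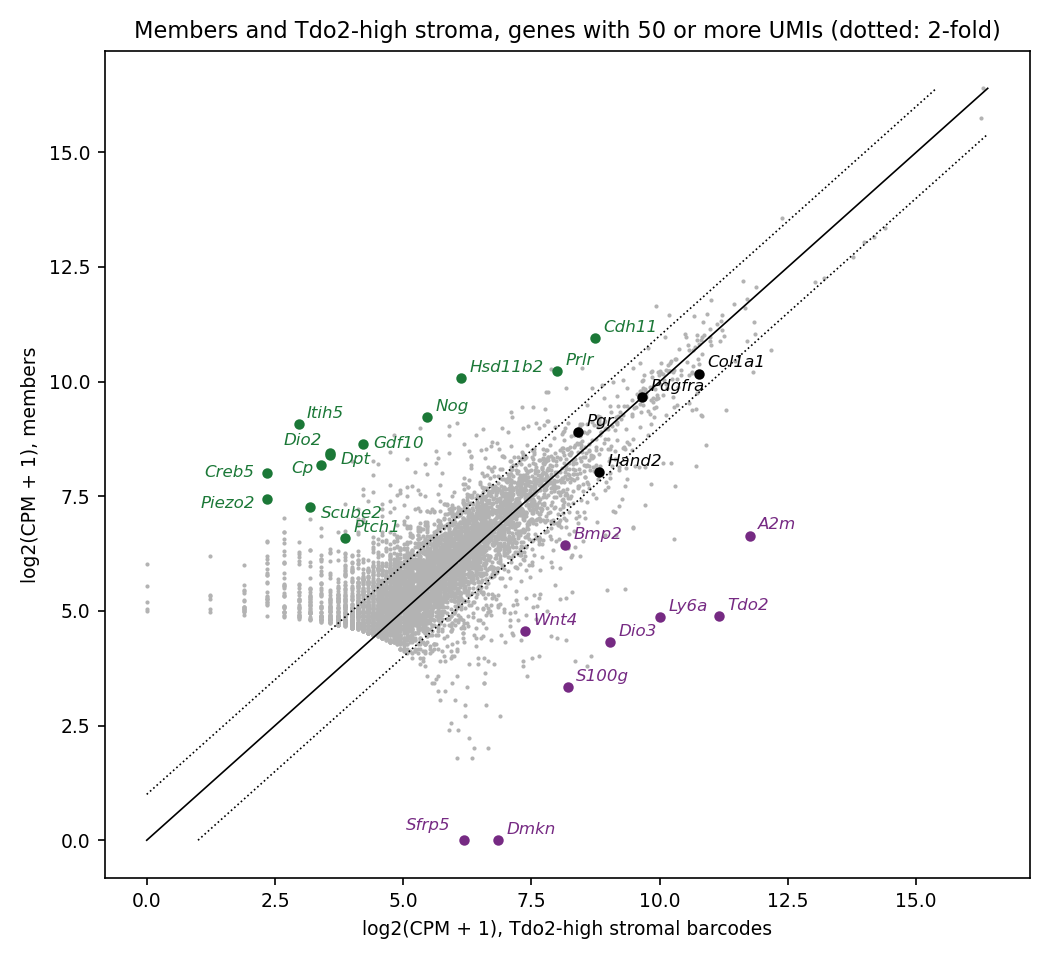
Summed level of each gene with at least 50 UMIs over both groups, as log2(CPM + 1), in Tdo2-high stromal barcodes (x axis) and members (y axis), with equality solid and 2-fold dotted. Itih5 lies at 540 CPM in members and 6.78 CPM in Tdo2-high barcodes, A2m at 98.9 and 3467 CPM, and Pdgfra on the line.

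**Figure D4:**
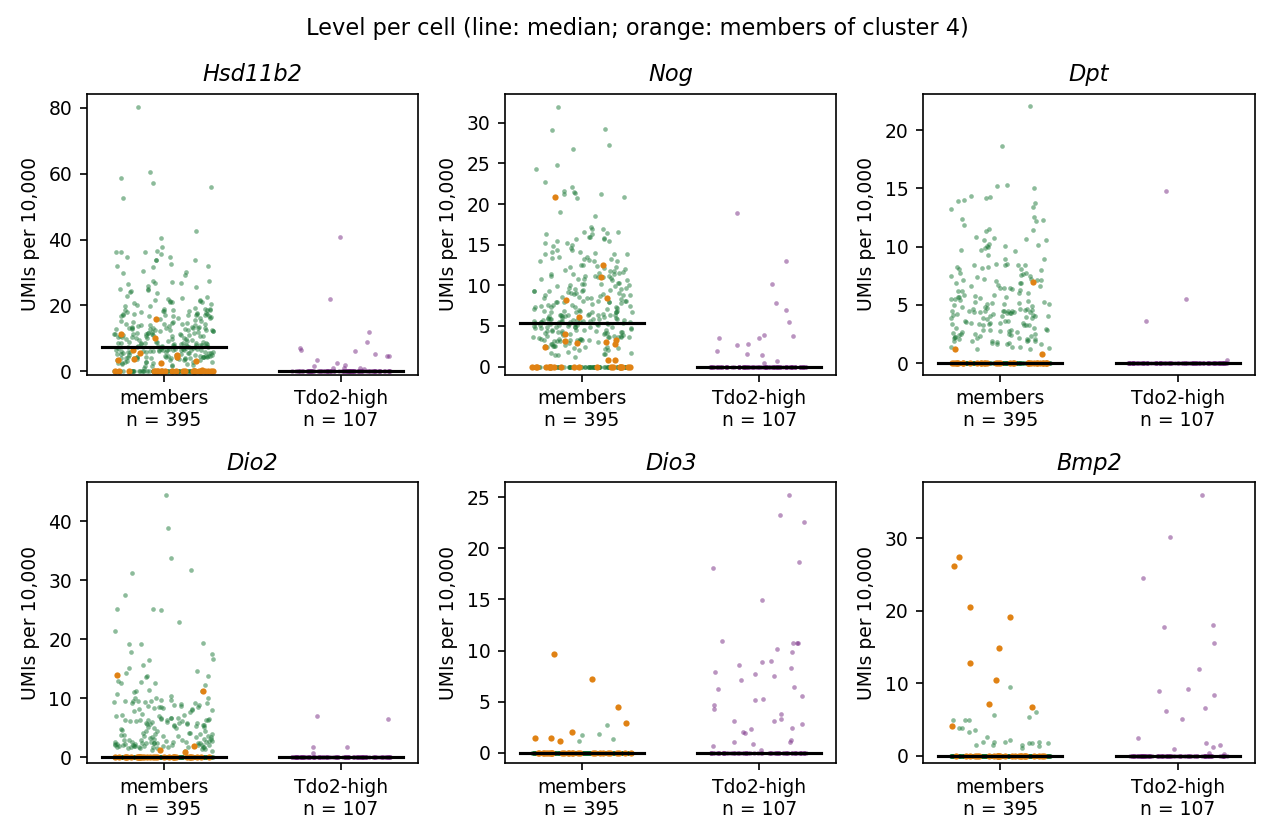
UMIs per 10000 in every member (left, n = 395) and every Tdo2-high barcode (right, n = 107) for 6 genes, with the median as a line and the 36 members of cluster 4 in orange. Hsd11b2 and Nog have medians of 7.25 and 5.31 in members and 0 in Tdo2-high barcodes, and the highest Bmp2 values of members lie in cluster 4.

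The 6 Dcn-high barcodes were the matrix-rich neighbours just across the Dcn limit. They held 38713 UMIs, so a single UMI is 25.8 CPM and their levels are coarse. Of 5574 genes compared, 772 (13.9%) were at least 2-fold higher in members and 784 (14.1%) lower. The lowest ratios were those of Lum, C3, Postn, Dcn, which the rule used, Igfbp6, Ly6a, Cd34 and Flrt2. Lum, a collagen-binding proteoglycan, was at 15.3 CPM in members (25 UMIs) and 775 CPM in Dcn-high barcodes (30 UMIs), and C3, complement component 3, at 27.5 and 672 CPM. Dpt and Col3a1 were lower in members too, at 335 and 1203 CPM against 1266 and 6535 CPM. Hsd11b2 was at 1077 CPM in members and 465 CPM in Dcn-high barcodes, a ratio of 2.32 (1.46 to 3.92). Pgr had the highest ratio, 18.5 (3.30 to 730), with 781 UMIs in members and 1 UMI in the 6 Dcn-high barcodes.

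The 80 mesothelial barcodes, cells of the uterine surface, had Esr1 and Col1a1 within 2-fold of the members and far less Hsd11b2, Nog, Dpt and Pgr. Of 6655 genes compared, 1043 (15.7%) were at least 2-fold higher in members and 821 (12.3%) lower. Ctla2a, a cysteine protease inhibitor, was at 12122 CPM in members and 47.6 CPM in mesothelial barcodes, and Hsd11b2 and Dpt had 1 UMI each in the 462355 UMIs of the mesothelial barcodes. The endothelin receptor gene Ednrb was at 1255 CPM in members and had 0 UMIs in mesothelial barcodes, at least 193-fold higher with 3 counts over the group. Rxfp1, the relaxin receptor gene, was at 546 CPM in members and 4.33 CPM in mesothelial barcodes, and Rgs2, a regulator of G protein signalling, at 1698 and 15.1 CPM. Pgr was at 477 CPM in members and 6.49 CPM in mesothelial barcodes, whereas Esr1 was at 522 CPM in members and 567 CPM in mesothelial barcodes. Gpm6a, Upk3b, Gata6, Muc16, Stk26, Lrrn4 and Cavin2 were among the lowest. Upk3b and Lrrn4 are mesothelial genes of the rule, which also chose the mesothelial barcodes, so their low ratios were fixed by the selection. Muc16, a surface mucin, had 1 UMI in members and 169 in mesothelial barcodes.

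Among themselves the members fell into 4 clusters (Leiden, resolution 0.5), whose leading genes were picked by the clustering and are given as a description. Cluster 1 held 138 members with a median of 2704 UMIs and cluster 2 held 102 with 4589. Cluster 3 held 119 with 4080, and cluster 4 held 36 with 5623. Hsd11b2 was at 1055, 1557 and 1079 CPM in clusters 1, 2 and 3 and at 153 CPM in cluster 4. Nog was at 775, 599, 671 and 136 CPM, and Pgr at 542, 474, 430 and 463 CPM in the same order. Hsd11b2 was highest in cluster 2 (interval 1446 to 1674 CPM, against 960 to 1156 in cluster 1), and both Hsd11b2 and Nog were lowest in cluster 4.

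Cluster 1 had few genes of its own: its highest ratio, for Edrf1, was 3.71 (67.5 CPM in cluster 1 and 18.2 CPM in other members), followed by Mt3, Parp6, Cpe, Nrxn3 and Slc35a1. It was the shallowest cluster, and the part of depth was not tested. Cluster 2 was led by Apoe, Matn2, Tent5c, Fgf10, Ppp1r14a and Il31ra. Apoe, a lipid carrier, was at 459 CPM in cluster 2 and 116 CPM in other members, and Fgf10, a mesenchymal growth factor for epithelium, at 95.2 and 34.3 CPM. Dpt was at 501 CPM in cluster 2, 412 in cluster 3, 233 in cluster 1 and 21.2 in cluster 4.

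Cluster 3 was led by Rgs5, Hspa1a, Fosb, Abcc9, Hspa1b and Fos. The immediate early and heat shock list summed to 11234 CPM in cluster 3, against 2475, 2247 and 2672 CPM in clusters 1, 2 and 4. The list was still at 10560 CPM in the 115 cells of cluster 3 with fewer than 5 Rgs5 UMIs, and at 20768 CPM in the 4 Rgs5-rich cells. Those 115 cells had 6.42 CPM of Rgs5, 1155 CPM of Hsd11b2 and 719 CPM of Nog, so Rgs5 and Abcc9 as leading genes came from the 4 cells. The median mitochondrial share of cluster 3 was 3.54%, the lowest of the 4.

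Without Cdh11, which the rule used, the given stromal markers summed to 5212 CPM in cluster 4. They summed to 3592, 5100 and 4144 CPM in clusters 1, 2 and 3. Col1a1 gave the largest part of the sum in cluster 4, whereas Hsd11b2, Nog and Dpt were at their lowest there. Those 3 levels go against the label for cluster 4. Cluster 4 was led by Gata3, Kit, Runx1, Ptgs2, Bmp2 and Nnat. Gata3 was at 391 CPM in cluster 4 and 5.70 CPM in other members, against 237 CPM in Tdo2-high barcodes, and Runx1, a transcription factor, at 361, 9.27 and 266 CPM. Bmp2 was at 472 CPM in cluster 4 and 20.7 CPM in other members, but its 111 UMIs in the cluster lay in 10 of the 36 cells. Ptgs2, the inducible prostaglandin synthase, was at 242 CPM in cluster 4 and 7.84 CPM in other members, and at 59.7 CPM in Tdo2-high barcodes. Dio3 was at 110 CPM in cluster 4 and 3.56 CPM in other members, Wnt4 at 115 and 7.13 CPM, and Tdo2, held under 5 per 10000 by the rule, at 93.5 and 17.8 CPM.

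The 6 decidual markers other than Tdo2 summed to 1147 CPM in cluster 4, of which Bmp2 gave 472, and to 258, 313 and 336 CPM in clusters 1, 2 and 3, against 1801 CPM in Tdo2-high barcodes. Col1a1 was at 3326 CPM in cluster 4 and 792 CPM in other members. The lowest genes of cluster 4 were Tgm2, Scube2, Fam189a2, Gdf10, Htra3 and Enpp2, with Scube2 at 4.25 CPM in cluster 4 and 178 CPM in other members. 7 of 34 thinned cells of cluster 4 (20.6%, interval 8.70 to 37.9) had at least 3 UMIs of G2 and mitosis genes, against 3 of 95 in cluster 1, 0 of 95 in cluster 2 and 0 of 95 in cluster 3, a count that allows up to 3.81%. The median mitochondrial share was 14.0% in cluster 4 and 5.0003%, 3.64% and 3.54% in clusters 1, 2 and 3. In the 11 cells of cluster 4 at or under 10% mitochondrial UMIs, Hsd11b2 was at 234 CPM and Dio3 at 93.5 CPM, and Bmp2 had 0 of its 111 UMIs. The part of the mitochondrial share in these levels was not tested. Without cluster 4 the Bmp2 level of members was below that of all other barcodes, at a log2 ratio of -0.64 against 1.41 with it.

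**Figure D5:**
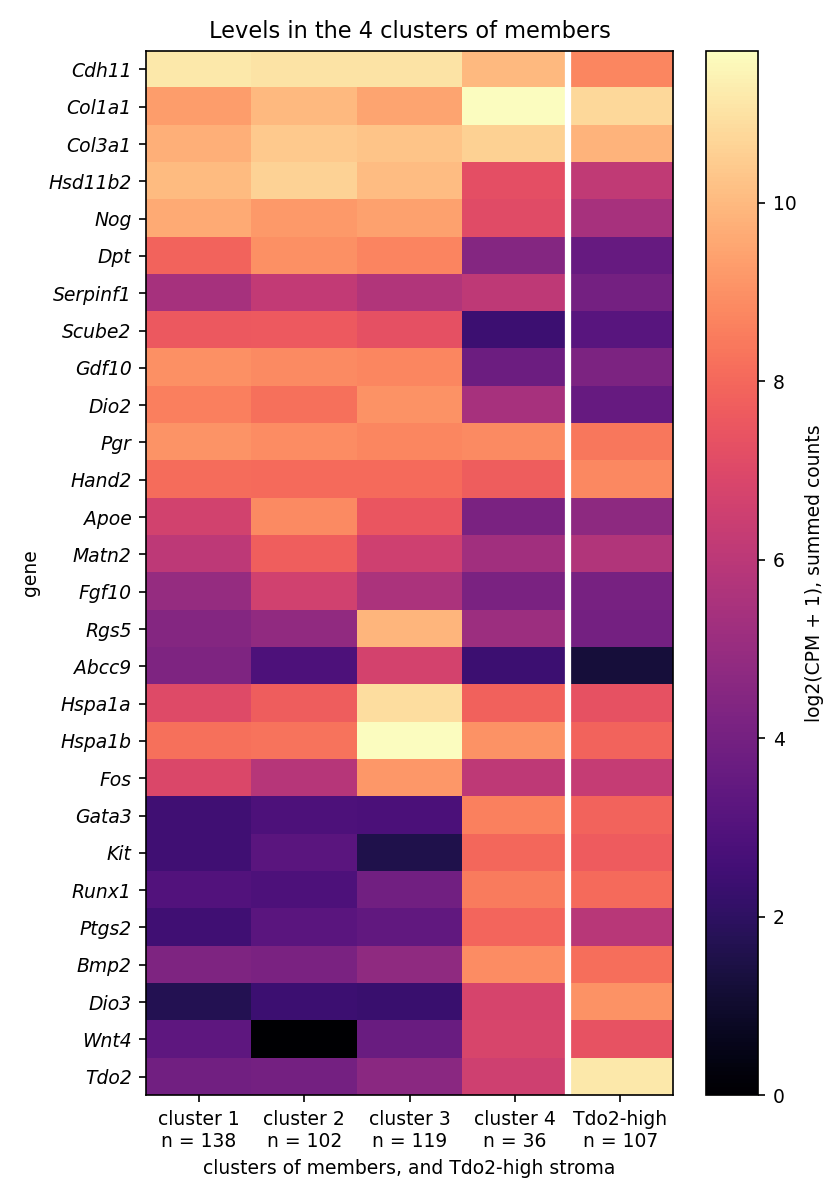
Summed levels as log2(CPM + 1) of 28 genes (rows) in the 4 clusters of members and, right of the white line, in Tdo2-high stromal barcodes. Hsd11b2 is at 1055, 1557, 1079 and 153 CPM in clusters 1 to 4, and Gata3, Kit and Runx1 are high in cluster 4 and in Tdo2-high barcodes.

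Within the members, Hsd11b2 and Nog were often found in the same cells. In 319 members thinned to the same depth, Nog was found in 158 of the 218 cells with Hsd11b2 (72.5%, interval 66.0 to 78.3) and in 51 of the 101 cells without it (50.5%, 40.4 to 60.6). Gdf10 was found in 52.3% of cells with Hsd11b2 and 35.6% of cells without it, and Scube2 in 27.1% and 13.9%. Bmp2 went the other way, in 3.21% of cells with Hsd11b2 and 16.8% of cells without it. These shares pool all clusters. Cluster 4 held 1 Scube2 UMI and 3 Gdf10 UMIs, and of its 36 cells 24 had no Hsd11b2 and 21 no Nog. Col1a1 was found in 65.6% of cells with Hsd11b2 and 79.2% of cells without it, and Pgr in 55.0% and 51.5%. The intervals of the paired shares overlapped for Gdf10, Scube2, Col1a1 and Pgr, and lay apart for Nog and Bmp2. Over all 395 members, 47 had neither Hsd11b2 nor Nog, with a median of 2674 UMIs, and 14 of these belonged to cluster 4. They held 571 CPM of Bmp2 and 2420 CPM of Rgs5, against 18.7 CPM of each in the 348 members with either gene. Of the 479 Rgs5 UMIs in these 47 cells, 473 came from the 4 Rgs5-rich cells. Over all members, 111 Bmp2 UMIs lay in cluster 4 and 29 outside it.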

How the data were processed

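Whole uterus was dissociated and run on Chromium Single Cell 3′ v3.1 chemistry, per the labels' protocols. The deposited values are raw UMI counts per gene and barcode. Per the file headers the authors used Cell Ranger 4.0.0, and per the submitters' processing notes mm10; the sources used here name neither cell calling settings nor an annotation. 32287 features became 32247 symbols after features sharing a symbol were summed. The members, gene lists and given markers were chosen with earlier results of these data known. Counts were summed per group and divided by the total (CPM), with exact Poisson 95% intervals, conditional binomial intervals for ratios and Clopper-Pearson intervals for shares. A gene was compared at 50 or more UMIs over both sides and counted at 2-fold; a side at 0 was set to 3 counts. No test between groups was possible with 1 library. Named genes were the given and rule genes, the 12 highest and 8 lowest ratios of each comparison (mitochondrial, ribosomal and unnamed genes left out), the 2 extremes per list and side against all other barcodes, 15 genes of stromal biology and 6 per cluster; in each comparison the most telling of these are given. The Rgs5-rich cells, the marker genes Wt1 and Cdh5 and genes named beyond this rule (Dio3, Prlr, Gapdh, Fst, Foxo1, Cited2, Gja1, Slc2a1, Id1, Id3, Fkbp5, Gas1, Gas6, Cyp26b1, Hspa1a, Egr1 and members listed without values) were chosen after their values were seen. Clusters used 2000 variable genes, 20 components and 15 neighbours (seed 0). Doublets were called with Scrublet in scanpy 1.11.5 at a 5% expected rate and kept. Coordinates are from GENCODE M21, GRCm38, 1-based; 32235 identifiers matched. Software was matplotlib 3.10.9, igraph 0.11.9, scipy 1.17.1 and numpy 2.4.6 in Python 3.11.15. The comparison was tested on simulated data. Alternatives changed each limit of the rule, the depth, the totals, the weighting and the clustering.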

Additional observations from a re-analysis of the deposited data

Results flagged for a closer look

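The reference held an added sequence, sfGFP-Myc, that no comparison above uses. It drew attention because 25 UMIs of it were counted, in 16 of the 2775 barcodes, and the labels name no genotype for this library. Members held 10 of them in 5 cells, a level of 6.10 CPM (2.93 to 11.2), and all other barcodes held 12, a level of 0.918 CPM (0.474 to 1.60). Tdo2-high barcodes had 0 in 737474 UMIs, where 3 counts would go unseen. The second added sequence, iCre, had 1 UMI in all barcodes, in an epithelial one, and 0 in members.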

How the results depend on the processing

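The number of members was 395 and ranged from 347 to 440 over 9 alternatives. Counts of higher and lower genes stayed within 1.5 times of the values given under every alternative except these, each given as higher, then lower where both moved. Where the number of genes compared changed as well, it follows the word of. Thinning to 2000 UMIs gave 1048 and 1591 of 7833 against all other barcodes and 539 and 150 of 2778 against Tdo2-high. Thinned counts were 576 and 374 of 2970 against mesothelial and 195 higher of 2300 against Dcn-high barcodes. A minimum of 20 UMIs gave 1809 and 644 of 9607 against Tdo2-high and 1688 and 1422 of 9688 against mesothelial barcodes. Against Dcn-high barcodes it gave 3028 lower of 8753. A minimum of 200 gave 1308 and 1828 of 8475 for all other and 276 and 139 of 1976 for Tdo2-high barcodes. For mesothelial and Dcn-high barcodes it gave 309 and 203 of 1804, and 261 and 45 of 1343. A 3-fold rule gave 1161 higher for all other barcodes, 443 and 161 for Tdo2-high, 584 and 459 for mesothelial and 235 and 105 for Dcn-high barcodes. Against Dcn-high barcodes, Dcn below 50 gave 327 and 2754. Leaving out cluster 4 gave 512 lower of 5020 against Dcn-high barcodes, and leaving out cluster 3 gave 297 lower of 4212. Resolution 0.25 gave 2 clusters and resolution 1 gave 8. The log2 ratios of 123 named genes against all other barcodes gave 1722 values over 14 settings, of which 1520 moved by less than their counting interval, 193 moved by more and 9 changed direction. These 9 were Bmp2 (-0.082 at 10% mitochondrial UMIs, -0.64 without cluster 4), Rarb (-0.65, -1.03 and, thinned, -1.03), Slc2a3 (-0.12 as a mean over cells) and, thinned, Ankrd37 (0.55), Egln3 (0.037) and Sfrp5 (0.19); their cause was not tested. The alternatives without cluster 3 or 4, and that with 2 Tdo2 UMIs, were chosen after seeing the data. No paired analysis was possible because there was 1 library, and no replicate could be left out. Depth limits rare genes: 1 UMI in members is 0.610 CPM.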
